A study of Homo sapiens with 95 samples.

Results

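Metallothioneins were followed through 8 genes, MT2A, MT1E, MT1F, MT1G, MT1H, MT1M, MT1X and MT1A. They were taken by symbol from the 27978 genes listed in every sample, and all 8 were listed. The data came from sparse full length (SFL) sequencing, in which barcoded libraries of many samples were pooled and read with single reads. All 95 samples were AALE cells, human bronchial epithelium that has been immortalized, in 8 genotypes that were each exposed to 4 treatments. Besides DMSO, the cells received BaP (benzo(a)pyrene, a polycyclic hydrocarbon of smoke) at 173 μM, NNK (a nitrosamine of tobacco) at 490 μM, or CSC (condensate of cigarette smoke) at 24 μg/ml, for a time that was not given in the sources used here. CDKN2A and FAT1 were CRISPR knockouts, compared with GFP cells, which received the Cas9-GFP plasmid PX458 without a guide. FGFR1, NRF2 (the gene NFE2L2), NRG1 and PIK3CA were overexpressed, and were compared with HCRED cells, which carried an empty vector with the HcRed reporter. There were 3 samples in 31 of the 32 groups so formed, and 2 in FGFR1 with CSC. The study calls the samples of a group biological replicates. Neither it nor the labels says whether they were grown as independent cultures, so p-values do not reach beyond these samples.

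Metallothioneins are small, cysteine-rich proteins that bind zinc and copper and also trap cadmium, a metal of tobacco smoke. MT2A is the main form in most human tissues, and the MT1 genes are close copies of each other that lie beside it. Their promoters hold metal-response elements, short sites bound by the zinc-sensing transcription factor MTF1. Metals, glucocorticoids and oxidative stress are known inducers of the family.

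On the GRCh37 build, the GENCODE annotation places all 8 genes in a cluster on the long arm of chromosome 16. MT2A lies at chr16:56642496-56643409 on the plus strand. It is followed on the same strand by MT1E at chr16:56659387-56661024, MT1M at chr16:56666571-56667893, MT1A at chr16:56672578-56673999 and MT1F at chr16:56691643-56694610. MT1G, at chr16:56700642-56701977, is the only member on the minus strand. MT1H, at chr16:56703726-56705041, and MT1X, at chr16:56716382-56718108, close the row on the plus strand. The transcripts were between 396 and 746 bases long, with MT1E the longest. No 75-base window of the MT2A, MT1A or MT1F transcript occurred elsewhere in the genome or in a transcript of another gene. The share of windows that did so was 36.1% for MT1X, 11.9% for MT1E, 10.8% for MT1H, 6.55% for MT1G and 1.23% for MT1M. How reads that match several genes were treated is not given in the sources used here. The values of those 5 genes are therefore uncertain, and the shares do not measure by how much. MT1X also overlaps a long noncoding RNA gene on the same strand, which is not among the genes counted. Any windows shared with it are part of the 36.1% and were not separated.

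The promoters are shown because their metal-response elements are what the family is known for. RefSeq promoters on GRCh38.p14, from 250 bases before to 50 bases after the start, were matched for 3 of the 8 members, at chr16:56608334-56608633 for MT2A, chr16:56669564-56669863 for MT1H and chr16:56682220-56682519 for MT1X, all on the plus strand. Capitals mark the core of the metal-response element, TGCACNC or TGCGCNC, on either strand.
MT2A: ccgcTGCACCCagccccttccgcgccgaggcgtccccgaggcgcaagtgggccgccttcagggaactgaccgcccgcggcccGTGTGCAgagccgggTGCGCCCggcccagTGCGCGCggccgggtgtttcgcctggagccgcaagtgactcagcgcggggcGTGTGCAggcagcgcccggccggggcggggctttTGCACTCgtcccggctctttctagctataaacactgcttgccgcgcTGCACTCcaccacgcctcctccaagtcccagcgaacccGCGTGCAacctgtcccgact
MT1H: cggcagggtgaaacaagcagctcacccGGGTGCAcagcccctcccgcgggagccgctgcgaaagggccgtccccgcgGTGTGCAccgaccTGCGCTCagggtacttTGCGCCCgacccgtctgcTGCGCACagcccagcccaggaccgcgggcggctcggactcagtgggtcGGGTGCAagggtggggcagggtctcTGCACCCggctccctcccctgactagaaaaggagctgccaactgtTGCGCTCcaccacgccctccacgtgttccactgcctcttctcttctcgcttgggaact
MT1X: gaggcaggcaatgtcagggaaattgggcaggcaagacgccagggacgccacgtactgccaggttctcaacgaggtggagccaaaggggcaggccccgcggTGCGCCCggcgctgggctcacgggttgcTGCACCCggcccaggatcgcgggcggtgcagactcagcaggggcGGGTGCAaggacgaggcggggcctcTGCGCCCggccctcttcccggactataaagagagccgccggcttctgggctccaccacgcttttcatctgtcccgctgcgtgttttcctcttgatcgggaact
MT1E, MT1F, MT1G, MT1M and MT1A were the other members.

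The MT2A and MT1H promoters each held 8 matches to this core and the MT1X promoter held 4. Among 35116 promoters of the same length, 29.6% held at least 1 match, 0.601% held at least 4 and 0.0199% held at least 8. The core of the antioxidant response element, TGACNNNGC, occurred 1 time in MT2A and MT1X and was not found in the MT1H window, against 13.3% of all promoters. The core of the xenobiotic response element, GCGTG, occurred 3 times in MT2A, 1 time in MT1H and 2 times in MT1X, against 36.5% of all promoters, and 1 of the MT2A matches lies within the metal-response match at bases 281 to 287 of the window. Both strands were searched, and a match describes letters, not a bound site.

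The libraries held between 287446 and 2116383 counted reads (median 934235), so that 3 reads correspond to between 1.42 and 10.4 CPM, the count scaled to the size of its library. The median depth was 1051108 reads with DMSO, 825587 with CSC, 836088 with BaP and 753703 with NNK. The summed CPM of 6 basal epithelial markers was between 3730 and 11500 and that of 4 general epithelial markers between 780 and 1250 in every library. The summed level of 6 fibroblast markers was at most 66.9 CPM, of 5 leukocyte markers at most 38.8, of 3 secretory markers at most 5.65, of 2 ciliated markers at most 4.54 and of 3 endothelial markers at most 3.92. Each perturbed gene lay on the labelled side of its control in every sample, and CYP1A1, which is induced by smoke hydrocarbons, had a median of 7.55 CPM with DMSO, 388 with CSC, 360 with BaP and 52.3 with NNK. These are bulk samples, in which fewer cells of a type and less RNA per cell cannot be told apart.

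MT2A gave most of the metallothionein RNA of these cells. It took 87964 of the reads counted in the 8 genes, or 78.7%, and was read in all 95 libraries at a median of 808 CPM. MT1E took 16% and MT1X 4.97%, with medians of 193 and 57.7 CPM, and both were also read in every library. Per kilobase of transcript the medians were 2015 CPM for MT2A, 259 for MT1E and 143 for MT1X, so the order of the 3 genes was the same per length.

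The other 5 members were at or near the limit of detection. MT1F had 298 reads in 87 libraries and a median of 3.17 CPM, or 7.45 per kilobase. MT1G had 42 reads in 30 libraries, and MT1A also had 42 reads in 30 libraries. MT1H had 10 reads in 10 libraries and MT1M 4 reads in 4. Pooled over the libraries, MT1G and MT1A each stood at 0.47 CPM (95% exact Poisson interval 0.338 to 0.635), MT1H at 0.112 (0.0536 to 0.206) and MT1M at 0.0447 (0.0122 to 0.115). These intervals, like the level that 3 reads correspond to, cover counting error only.

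The rare members were too thinly read to compare treatments. MT1H had 0 reads in the 24 libraries with DMSO, 4 with CSC, 1 with BaP and 5 with NNK. MT1G had 12 reads with DMSO, 9 with CSC, 12 with BaP and 9 with NNK, and MT1A had 14, 11, 10 and 7. MT1G had 0 reads in 11 FGFR1 libraries, where 3 to 11 reads were counted in each of the other lines. A filter on a mean count above 1 over all libraries left MT2A, MT1E, MT1X and MT1F, and the tests over all lines below cover these 4 genes and not the other 4.

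MT2A rose 2.12-fold with CSC over all lines. With DMSO, MT2A had a low of 159, a median of 677 and a high of 1225 CPM over 24 libraries, and with CSC a low of 413, a median of 1371 and a high of 2918 over 23. The ranges overlapped over all lines, and within each line they did not. In a limma-voom model with genotype, the log2 fold change was 1.08 (SE 0.047, 95% interval 0.99 to 1.18, adjusted p = 8.2e-46).

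MT1E, MT1X and MT1F also rose with CSC, by 1.27-fold, 1.40-fold and 1.80-fold. MT1E had a low, median and high of 77.8, 174 and 276 CPM with DMSO and of 101, 220 and 329 with CSC, a log2 fold change of 0.34 (SE 0.054, adjusted p = 1.75e-08). MT1X went from 34.6, 51.5 and 108 CPM to 43.4, 72.4 and 119, a log2 fold change of 0.48 (SE 0.074, adjusted p = 8.59e-09). MT1F went from 0, 1.99 and 6.13 CPM to 1.17, 4.14 and 8.49, a log2 fold change of 0.85 (SE 0.24, adjusted p = 0.00126). All 4 of the tested members thus rose, in a comparison in which 55.1% of 14384 genes passed the threshold of 0.05 and 28% of genes did so upward. With each library's trend over GC content and transcript length removed, MT2A kept a log2 fold change of 0.88, MT1X 0.31 and MT1F 0.56, while MT1E was left with 0.0035 and an adjusted p of 0.972.

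**Figure D1:**
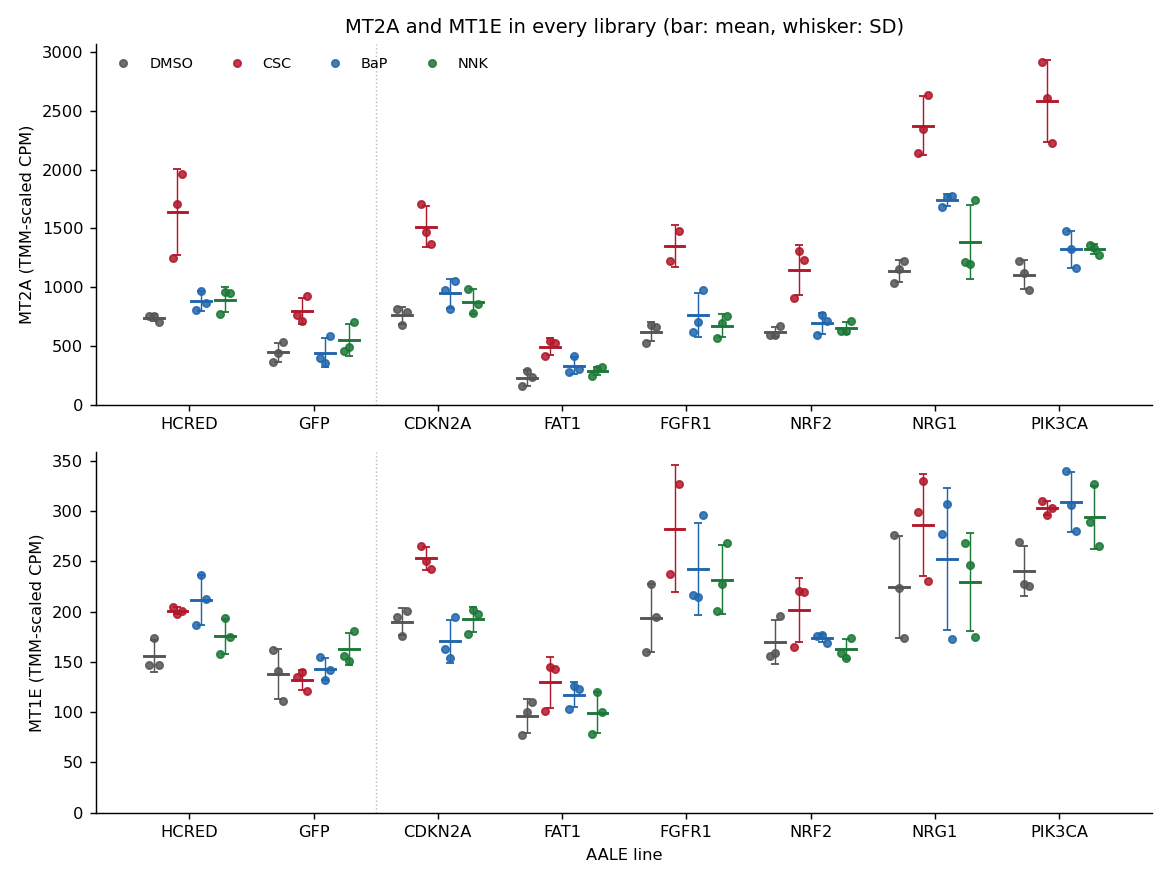
Level of MT2A (top) and MT1E (bottom) in each library, in CPM on a linear axis, by line and treatment. Points are libraries, bars are means and whiskers are SD. In all 8 lines every MT2A point with CSC lies above every point with DMSO, from 413 CPM upward in FAT1 cells to 2918 in PIK3CA cells.

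MT2A rose with BaP and with NNK too. MT2A had a low, median and high of 276, 810 and 1773 CPM with BaP, a log2 fold change from DMSO of 0.34 (SE 0.052, adjusted p = 1.51e-08). With NNK the values were 246, 763 and 1746 CPM, a log2 fold change of 0.23 (SE 0.053, adjusted p = 0.000121). These are rises of 1.26-fold and 1.17-fold, and libraries with either chemical overlapped those with DMSO over most of their range.

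MT1E was 1.17-fold higher with BaP (log2 fold change 0.22, SE 0.055, adjusted p = 0.000403) and also higher with NNK (0.16, SE 0.056, adjusted p = 0.01). MT1X was 1.15-fold higher with BaP (0.20, SE 0.078, adjusted p = 0.0243) and did not pass with NNK (0.07, adjusted p = 0.45). The BaP call of MT1X was lost in edgeR (adjusted p = 0.0653) and DESeq2 (0.0569), and without the first CDKN2A library with BaP (0.0569), the second GFP library with BaP (0.054) or the third PIK3CA library with DMSO (0.0521). MT1F passed in neither (0.17, adjusted p = 0.592, and 0.43, adjusted p = 0.146). The background was 51% of genes called with BaP and 51.8% with NNK, with 26.1% called higher in each, so 3 and 2 of the 4 tested members stand against a wide response. With the trends over GC content and length removed, MT2A kept its call with BaP (0.18, adjusted p = 0.00292) and lost it with NNK (0.12, adjusted p = 0.0782), and MT1E turned to -0.08 and -0.09 with adjusted p of 0.355 and 0.286. All these comparisons share the DMSO libraries.

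**Figure D2:**
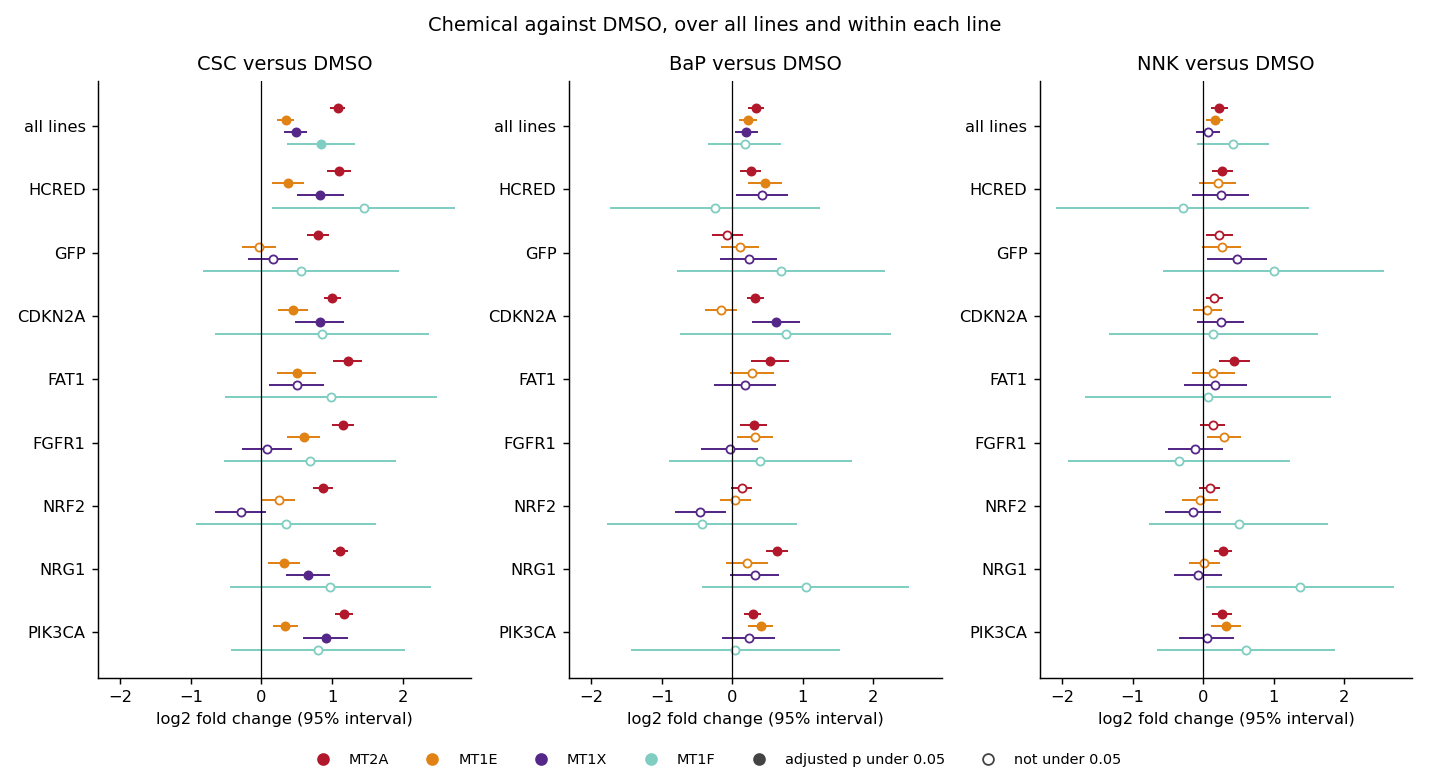
Log2 fold change from DMSO of MT2A, MT1E, MT1X and MT1F with CSC, BaP and NNK, over all lines and within each line, with 95% intervals. Filled points have an adjusted p under 0.05 and open points do not. The MT2A points with CSC, between 0.80 and 1.22, are filled in all 8 lines.

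The chemicals were also compared with each other, at the single dose of each. MT2A was higher with CSC than with BaP by 0.74 on the log2 scale (adjusted p = 5.81e-27) and higher than with NNK by 0.86 (adjusted p = 2.26e-32). MT1X was higher with CSC than with BaP by 0.28 (adjusted p = 0.00383) and than with NNK by 0.41 (adjusted p = 1.09e-05). MT1F passed against BaP (0.67, adjusted p = 0.0462), a call that edgeR (0.0723) and DESeq2 (0.0647) did not give and that any of 27 single libraries could end, and not against NNK (0.42, adjusted p = 0.222). MT1E passed against NNK (0.18, adjusted p = 0.00932) and not against BaP (0.12, adjusted p = 0.114). CSC was called above BaP for 8.83% of all genes and above NNK for 12%. Between BaP and NNK, where 11.8% of genes were called in limma-voom, none of the 4 members was. The BaP minus NNK difference of MT2A was 0.11 (95% interval 0.0068 to 0.21, adjusted p = 0.172).

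Within each line, MT2A separated CSC from DMSO without overlap. In HCRED cells it was at 759, 754 and 707 CPM with DMSO and at 1245, 1708 and 1964 with CSC. In GFP cells it was at 365, 443 and 531 CPM with DMSO and at 766, 712 and 922 with CSC. These are the control lines, and every CSC library of each lay above every DMSO library, by 2.15-fold in HCRED (adjusted p = 5.78e-21) and 1.74-fold in GFP (adjusted p = 4.69e-14).

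The knockouts of CDKN2A, a cell cycle inhibitor, and of FAT1, a protocadherin, lay on opposite sides of GFP. CDKN2A cells had 818, 677 and 788 CPM of MT2A with DMSO and 1705, 1472 and 1371 with CSC. FAT1 cells had 159, 287 and 239 CPM with DMSO and 413, 546 and 524 with CSC. The fold was 2.01 in CDKN2A (adjusted p = 7.01e-46) and 2.34 in FAT1 (adjusted p = 3.56e-22), the line with the lowest MT2A.

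FGFR1 is a growth factor receptor and NRG1 a ligand of the ERBB receptors. FGFR1 cells had 530, 676 and 659 CPM of MT2A with DMSO and 1221 and 1476 with CSC. NRG1 cells had 1036, 1155 and 1225 CPM with DMSO and 2138, 2349 and 2634 with CSC. The folds were 2.22 (adjusted p = 1.83e-28) and 2.17 (adjusted p = 2.31e-47), with no overlap in either line.

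NRF2 is the transcription factor of the antioxidant response and PIK3CA a catalytic subunit of phosphoinositide 3-kinase. NRF2 cells had 594, 596 and 672 CPM of MT2A with DMSO and 908, 1307 and 1230 with CSC. PIK3CA cells had 1222, 1124 and 979 CPM with DMSO and 2918, 2607 and 2225 with CSC. The folds were 1.83 in NRF2 (adjusted p = 3.06e-21) and 2.24 in PIK3CA (adjusted p = 1.94e-26).

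MT2A was thus called higher with CSC in 8 of 8 lines, where 1.77% of 12655 genes were, and it did not overlap in any of them, where 2.2% of genes were higher without overlap in all 8. The genes called higher made up 12.7% in HCRED, 12% in GFP, 5.97% in CDKN2A, 7.52% in FAT1, 6.55% in FGFR1, 4.88% in NRF2, 7.67% in NRG1 and 11.3% in PIK3CA. The calls held in all 8 lines with the GC and length trends removed, at log2 fold changes between 0.59 in GFP and 1.002 in FAT1.

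A difference in the size of the MT2A rise between lines was not detectable at this depth and number of samples. The CSC response of a line minus that of its control lay between -0.23 for NRF2 (95% interval -0.61 to 0.15) and 0.41 for FAT1 (95% interval -0.03 to 0.84), and limma-voom called none of the 6 differences (smallest adjusted p = 0.699). The genes called in them made up 0.216% for CDKN2A, 0.0417% for FAT1, 0.0209% for FGFR1, 0.111% for NRF2 and 0.00695% for NRG1 and for PIK3CA. The 21 interaction terms of genotype and treatment were not called for MT2A (adjusted p = 0.573), where 2.36% of genes were.

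MT1E rose with CSC in 6 of 8 lines and the groups did not overlap in 4. In the single lines here and below, the share of all genes without overlap was not counted, so a lack of overlap is a description. The change was 0.60 in FGFR1 cells, from 160, 228 and 194 CPM to 238 and 327 (adjusted p = 2.63e-05). In CDKN2A cells it was 0.45, from 194, 175 and 200 CPM to 265, 251 and 243 (adjusted p = 0.00057). HCRED (0.38), FAT1 (0.50), NRG1 (0.32) and PIK3CA (0.34) also passed. NRF2 did not (0.25, adjusted p = 0.166), and GFP cells had 161, 141 and 112 CPM with DMSO against 135, 140 and 121 with CSC (-0.03, adjusted p = 0.875). With the GC and length trends removed, none of the 6 calls held and MT1E was called lower in GFP (-0.405, adjusted p = 0.0113). Leaving out a single library also ended the call in HCRED (up to adjusted p = 0.0609, without the first DMSO library, or 0.0522 without the third). The same was so in FAT1 (up to 0.123, without the first DMSO library, and 0.0575 or 0.0844 without the second or the third CSC library) and in NRG1 (up to 0.311, without the third DMSO library, and 0.0866 or 0.294 without the first or the second CSC library). In FGFR1 it ended without the third CSC library (0.251), which left 1 sample, assumed to vary like the DMSO group. Without the first NRF2 library with CSC, MT1E was called in NRF2 (0.38, adjusted p = 0.0219).

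MT1X rose with CSC in 4 of 8 lines. In HCRED cells it went from 50.8, 51.8 and 47.2 CPM to 82.0, 92.3 and 96.5 (log2 fold change 0.84, adjusted p = 2.87e-05). In PIK3CA cells it went from 53.4, 51.2 and 39.6 CPM to 85.8, 117 and 83.9 (0.91, adjusted p = 3.96e-06). CDKN2A (0.83, adjusted p = 8.53e-05) and NRG1 (0.66, adjusted p = 0.000716) passed too, and none of these 4 lines had overlapping groups. These 4 calls also held with the GC and length trends removed.

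In the other 4 lines the change of MT1X did not pass. FAT1 libraries did not overlap, at 42.7, 34.6 and 36.9 CPM against 49.2, 53.5 and 53.8, at a change of 0.50 (95% interval 0.12 to 0.88, adjusted p = 0.0715). GFP changed by 0.17 (adjusted p = 0.515) and FGFR1 by 0.08 (adjusted p = 0.842). In NRF2 cells MT1X was at 81.8, 108 and 51.1 CPM with DMSO and at 58.3, 70.5 and 58.9 with CSC, a change of -0.30 (adjusted p = 0.334), and of -0.57 (adjusted p = 0.0298) without the third DMSO library, the lowest of the 3. MT1F was above DMSO in the estimate of every line, by 0.35 to 1.45, and passed in none, at 0 to 8.49 CPM per library.

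**Figure D3:**
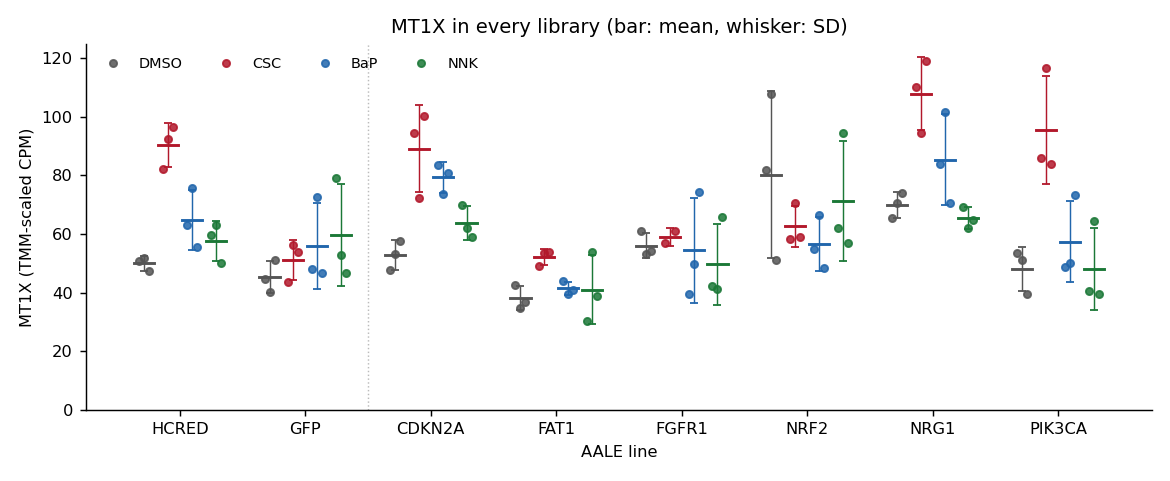
Level of MT1X in each library, in CPM, by line and treatment. Points are libraries, bars are means and whiskers are SD. The 3 NRF2 libraries with DMSO span 51.1 to 108 CPM, and their mean of 80.3 lies above the 62.5 with CSC, whereas in HCRED, CDKN2A, NRG1 and PIK3CA every CSC point lies above every DMSO point.

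MT1X was the only member whose response to treatment was called different between lines. Its adjusted p over the 21 interaction terms was 0.00765 and over the 7 terms of CSC 0.00327, where 2.36% and 0.779% of genes were called. MT1E (adjusted p = 0.236 over the 21 terms), MT2A and MT1F (0.878) were not called. Among the 6 differences between a line and its control, only the CSC response of NRF2 minus that of HCRED was called, at -1.13 on the log2 scale (95% interval -1.64 to -0.62, adjusted p = 0.0259), where 0.111% of genes were. The FGFR1 minus HCRED difference of -0.76 (adjusted p = 0.64) and the CDKN2A minus GFP difference of 0.64 (adjusted p = 0.368) did not pass. The NRF2 call rested on single libraries. It was lost without the second NRF2 library with DMSO (-0.90, adjusted p = 0.246) or the first (0.118), and without the first (0.0836) or the third (0.113) NRF2 library with CSC. It was also lost without the first (0.0864) or the third (0.13) HCRED library with DMSO or the second HCRED library with CSC (0.0676), while the difference stayed negative. It did not pass in DESeq2 (adjusted p = 0.0804) and passed in edgeR (0.0086). Without the NRF2 line the adjusted p of MT1X was 0.118 over the interaction terms and 0.166 over those of CSC.

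With BaP, MT2A rose in 6 of 8 lines and did not overlap in 2, again with no share of all genes counted for the overlap. NRG1 cells had the largest change, from 1036, 1155 and 1225 CPM to 1683, 1767 and 1773, or 1.55-fold (log2 fold change 0.63, adjusted p = 8.12e-09). FAT1 (0.53), CDKN2A (0.33), FGFR1 (0.31), PIK3CA (0.29) and HCRED (0.26) followed. NRF2 (0.13, adjusted p = 0.219) and GFP (-0.07, adjusted p = 0.723) did not pass. The genes called higher with BaP made up 2.67% in HCRED, 5.51% in GFP, 9.73% in CDKN2A, 7.77% in FAT1, 2.75% in FGFR1, 3.9% in NRF2, 4.86% in NRG1 and 5.5% in PIK3CA. MT1E passed with BaP in HCRED (0.46, adjusted p = 0.00566) and PIK3CA (0.40, adjusted p = 0.000489), and MT1X in CDKN2A, from 47.5, 53.3 and 57.7 CPM to 83.6, 73.5 and 80.7 (0.62, adjusted p = 0.00281).

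With NNK, MT2A rose in 4 of 8 lines. FAT1 changed by 0.44 (adjusted p = 0.0016), NRG1 by 0.28 (adjusted p = 6.59e-05), HCRED by 0.27 (adjusted p = 0.00204) and PIK3CA by 0.27 (adjusted p = 0.00179). The libraries did not overlap in HCRED, at 707 to 759 CPM with DMSO against 770 to 963, or in PIK3CA, at 979 to 1222 against 1274 to 1363. The share of all genes without overlap was not counted here either. MT1E passed in PIK3CA alone (0.32, adjusted p = 0.0222), and MT1X and MT1F passed in no line. The genes called higher with NNK made up 9.5% in HCRED, 9.87% in GFP, 3.03% in CDKN2A, 5.86% in FAT1, 4.27% in FGFR1, 3.8% in NRF2, 3.76% in NRG1 and 5.05% in PIK3CA. Over all members there were 9 calls with BaP and 5 with NNK within lines in limma-voom, and 3 and 1 in DESeq2.

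The reads of MT2A per read of MT1E were higher with CSC, which is described here without a test. For each MT1E read, HCRED cells had 4.78 ± 0.43 reads of MT2A with DMSO and 8.17 ± 1.89 with CSC (SD, n = 3). The ratio went from 4.61 ± 0.31 to 8.52 ± 1.06 in PIK3CA and from 2.35 ± 0.44 to 3.85 ± 0.23 in FAT1, the line with the lowest ratio. In 8 of 8 lines every CSC library had a higher ratio than every DMSO library. With BaP this was so in CDKN2A alone, and HCRED lay wholly below DMSO, and with NNK it was so in NRF2 alone. Both genes enter the ratio from the same library, so it does not depend on the library total.

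**Figure D4:**
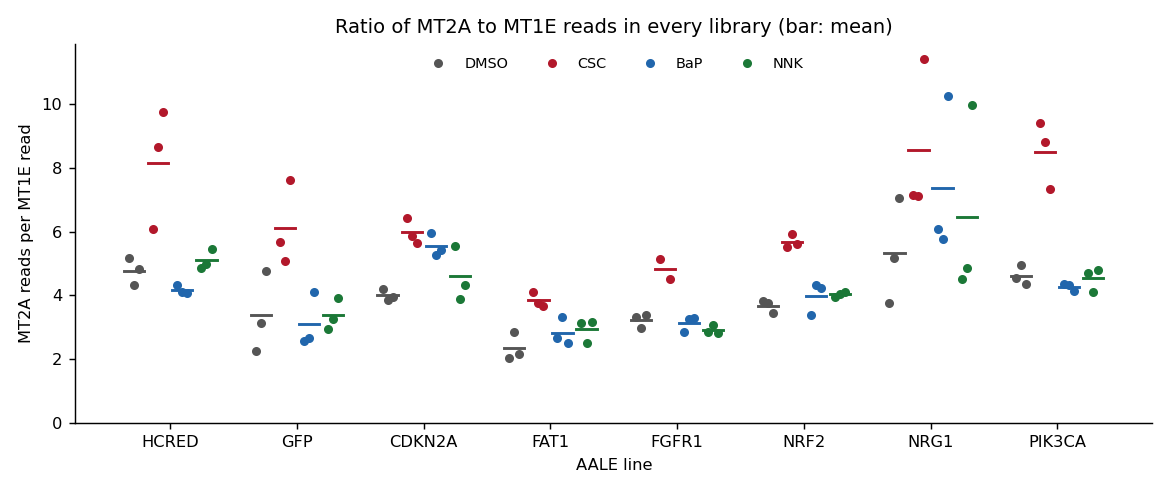
Reads of MT2A per read of MT1E in each library, by line and treatment. Points are libraries and bars are means. The means with DMSO run from 2.35 in FAT1 to 5.33 in NRG1, and in every line the CSC points lie above the DMSO points.

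MT2A made up between 61.5% (FAT1) and 79.2% (NRG1 and PIK3CA) of the reads of the 8 genes with DMSO and between 72.7% and 86.4% with CSC. The summed level of the 8 genes was 366 ± 75.0 CPM in FAT1 cells with DMSO and 680 ± 100.3 with CSC. It was highest in NRG1 with DMSO, at 1436 ± 49.95 CPM, and in PIK3CA with CSC, at 2987 ± 356 (SD, n = 3). Averaged over the lines, the log2 ratio of the sum to DMSO was 0.89 ± 0.16 with CSC, 0.27 ± 0.16 with BaP and 0.20 ± 0.086 with NNK (SD over 8 lines).

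The lines also differed in metallothionein level with DMSO. With DMSO, the mean of MT2A was 228 ± 64.7 CPM in FAT1, 446 ± 82.9 in GFP, 621 ± 44.1 in NRF2, 622 ± 79.99 in FGFR1, 740 ± 28.6 in HCRED, 761 ± 74.4 in CDKN2A, 1108 ± 122 in PIK3CA and 1139 ± 95.1 in NRG1 (SD, n = 3). Among neighbours in this order the libraries overlapped between NRF2 and FGFR1, between HCRED and CDKN2A, and between PIK3CA and NRG1. FAT1 and GFP, GFP and NRF2, FGFR1 and HCRED, and CDKN2A and PIK3CA did not overlap.

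Against their controls with DMSO, 3 lines had more MT2A and 3 had less, and none of the 6 overlapped with its control. CDKN2A was 1.67-fold above GFP (log2 fold change 0.74, SE 0.069, adjusted p = 7.16e-15), NRG1 1.52-fold above HCRED (0.60, SE 0.058, adjusted p = 1.83e-19) and PIK3CA 1.47-fold above HCRED (0.56, SE 0.059, adjusted p = 2.04e-11). FAT1 was below GFP by a log2 fold change of -1.06 (SE 0.12, adjusted p = 4.35e-09). FGFR1 (-0.27, SE 0.067, adjusted p = 0.0122) and NRF2 (-0.26, SE 0.062, adjusted p = 0.00252) were below HCRED by less. The share of genes called was 37.2% in CDKN2A, 26.3% in FAT1, 1.86% in FGFR1, 7.16% in NRF2, 2.04% in NRG1 and 8.6% in PIK3CA. Over 13251 genes tested in all 6, 0.113% were called in all 6 and 0.604% overlapped in none. The FGFR1 and NRF2 calls were not made by DESeq2 (adjusted p = 0.26 and 0.067) or in 1 model of all samples (0.504 and 0.4), and edgeR gave 0.0693 for FAT1. The FGFR1 call was also lost without its first DMSO library (-0.15, adjusted p = 0.356) or without the first HCRED library with DMSO (adjusted p = 0.139), and the NRF2 call without the first NRF2 library (adjusted p = 0.103). The knockout lines share the GFP libraries and the overexpression lines share the HCRED libraries.

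The direction of the MT2A difference was the same with each chemical. CDKN2A, NRG1 and PIK3CA stood above their controls, and FAT1 and NRF2 below, with limma-voom calls in all 4 treatments. CDKN2A minus GFP was 0.94 with CSC, 1.15 with BaP and 0.68 with NNK. FAT1 minus GFP was -0.65, -0.45 and -0.83. NRG1 minus HCRED was 0.60, 0.98 and 0.62, and PIK3CA minus HCRED was 0.64, 0.58 and 0.55. NRF2 minus HCRED was -0.49, -0.37 and -0.43. FGFR1 minus HCRED was called with NNK (-0.40, adjusted p = 1.72e-05) and not with CSC (-0.22, adjusted p = 0.128) or BaP (-0.22, adjusted p = 0.277). DESeq2 did not call NRF2 with CSC (adjusted p = 0.543, edgeR 0.406) or FAT1 with BaP (0.499), and in both the libraries overlapped those of the control. It also did not call NRG1 with CSC (0.359) or NNK (0.308), PIK3CA with CSC (0.0736) or FGFR1 with NNK (0.46). With CSC the shares of genes called were 32.3% in CDKN2A, 25.3% in FAT1, 2.83% in FGFR1, 4.87% in NRF2, 2.31% in NRG1 and 10.3% in PIK3CA. With BaP they were 32.1%, 21.4%, 1.42%, 7.25%, 1.52% and 7.12% in the same order, and with NNK 28.1%, 17.2%, 2.47%, 3.91%, 1.85% and 6.62%.

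**Figure D5:**
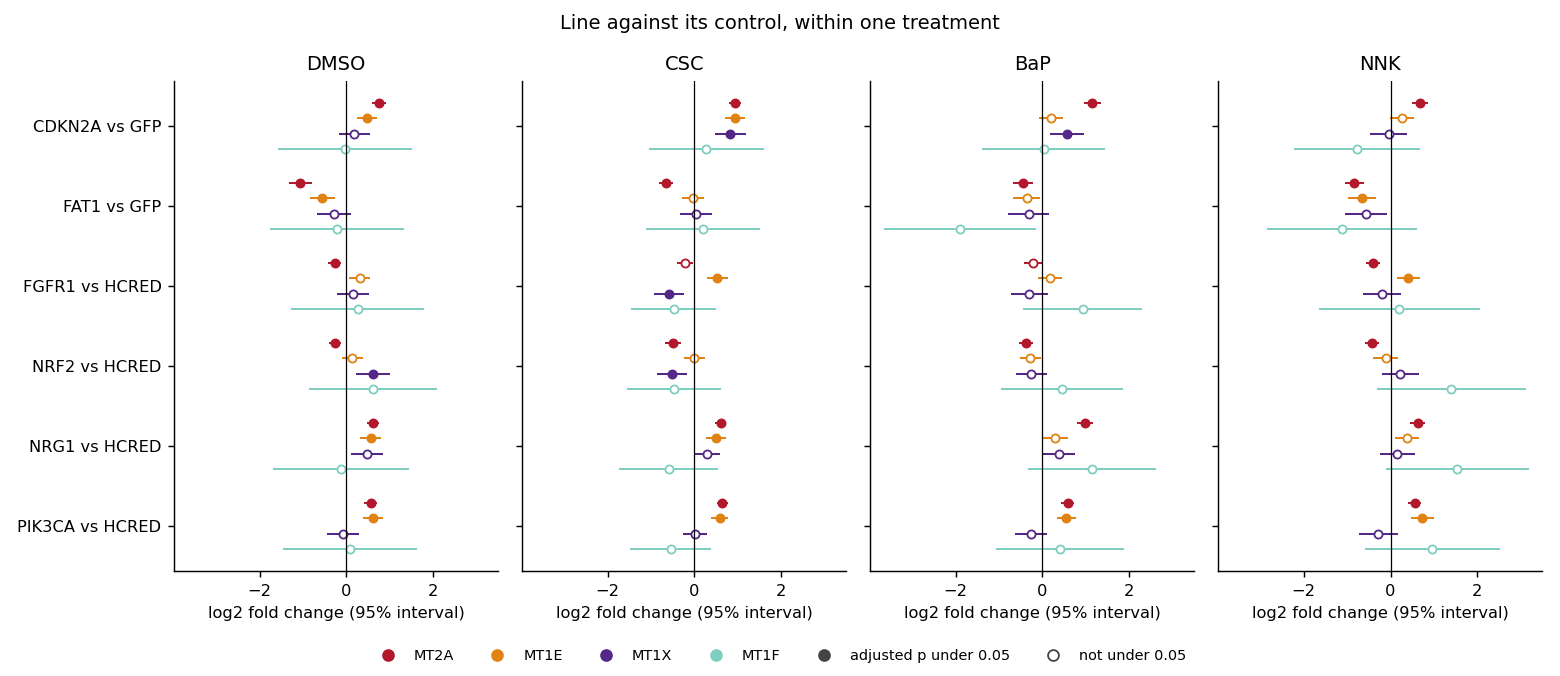
Log2 fold change of MT2A, MT1E, MT1X and MT1F between each line and its control with each treatment, with 95% intervals. The control was GFP for CDKN2A and FAT1 and HCRED for the others. Filled points have an adjusted p under 0.05. MT2A is above 0 in CDKN2A, NRG1 and PIK3CA and below 0 in FAT1, FGFR1 and NRF2 with every treatment.

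Over all treatments, in the model with both factors, MT2A passed in all 6 lines, MT1E in 5 and MT1X in 2, and MT1F in none. MT2A had log2 fold changes of 0.90 in CDKN2A (SE 0.072, adjusted p = 1.07e-22), 0.71 in NRG1 (adjusted p = 5.82e-20) and 0.60 in PIK3CA (adjusted p = 1.65e-17). It had -0.72 in FAT1 (SE 0.085, adjusted p = 1.03e-12), -0.41 in NRF2 (adjusted p = 2.85e-06) and -0.25 in FGFR1 (adjusted p = 0.00657), where the call was lost without the samples numbered 2 (-0.16, adjusted p = 0.298). The genes called made up 58.2% in CDKN2A, 48.8% in FAT1, 13.9% in FGFR1, 21.7% in NRF2, 12.2% in NRG1 and 27.7% in PIK3CA. Those called higher were 29.6%, 25.2%, 7.13%, 10.2%, 6.44% and 14.3% in the same order, and those called lower 28.7%, 23.6%, 6.74%, 11.5%, 5.74% and 13.5%.

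MT1E went the same way as MT2A in 4 lines and the opposite way in FGFR1. It was higher in PIK3CA (0.61, adjusted p = 9.27e-13), CDKN2A (0.50, adjusted p = 2.9e-08) and NRG1 (0.43, adjusted p = 4.25e-06) and lower in FAT1 (-0.35, adjusted p = 0.000373). In FGFR1 cells MT1E was higher (0.35, adjusted p = 0.000236) where MT2A was lower. MT1E of FGFR1 cells ran from 160 to 327 CPM with a median of 227, against 146 to 236 with a median of 190 in HCRED cells, and MT2A from 530 to 1476 with a median of 699 against 707 to 1964 with a median of 910. The ranges overlapped for both genes. NRF2 did not pass for MT1E (-0.07).

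MT1X passed in CDKN2A (0.46, adjusted p = 0.000111) and NRG1 (0.30, adjusted p = 0.035), both upward. The NRG1 call was not made by edgeR (adjusted p = 0.0647) and was lost on leaving out any of 11 single libraries, with adjusted p up to 0.0781 without the second NRG1 library with BaP. MT1X did not pass in PIK3CA (-0.15, adjusted p = 0.312), where MT2A and MT1E were both higher, or in FAT1 (-0.19, adjusted p = 0.176), FGFR1 (-0.26, adjusted p = 0.101) or NRF2 (-0.05). With CSC, MT1X was below HCRED in FGFR1 (-0.59, adjusted p = 0.0209) and NRF2 (-0.52, adjusted p = 0.0385), and with DMSO it was above HCRED in NRF2 (0.61, adjusted p = 0.024), where the libraries overlapped. DESeq2 gave adjusted p of 0.475, 0.343 and 0.198 for these 3 differences, and the last was lost without the first (0.114) or second (0.279) NRF2 library or the first (0.0726) or the third (0.0845) HCRED library with DMSO.

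The 2 control lines differed from each other. GFP cells were below HCRED cells over all treatments for MT2A (-0.93, adjusted p = 6.37e-21), MT1E (-0.41, adjusted p = 1.71e-05) and MT1X (-0.40, adjusted p = 0.00159), where 22.9% of genes were called lower. Knockout and overexpression lines were each compared with the control that the study gives for them.

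Genes of zinc and copper handling moved in both directions with CSC. Of 35 listed genes 27 were tested, 6 rose and 6 fell, and their median log2 fold change was -0.03 against 0.0035 over all genes. SLC39A4, a zinc importer, rose by 1.13 (adjusted p = 4.26e-07), SLC39A13 by 0.70 (adjusted p = 1.16e-11) and ATOX1, a copper chaperone, by 0.59 (adjusted p = 8.48e-07). SLC39A10 (-0.30) and SLC30A4 (-0.28) were lower. SLC30A1, the zinc exporter that is a known target of MTF1, had a median of 40.4 CPM with DMSO and 42.4 with CSC (log2 fold change 0.07, adjusted p = 0.415). MTF1 itself had a median of 53.4 CPM with DMSO and 60.6 with CSC (0.13, adjusted p = 0.0929). With BaP 7 of the 27 rose and 11 fell, and with NNK 6 rose and 9 fell. Over all genes 28% rose and 27.1% fell with CSC, 26.1% and 24.9% with BaP, and 26.1% and 25.7% with NNK, which is the background of the treatment counts of this list and of those that follow.

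Between lines, SLC30A1 was higher in CDKN2A than in GFP (0.52, adjusted p = 1.75e-06) and lower in NRF2 than in HCRED (-0.35, adjusted p = 0.00892), and MTF1 was lower in FAT1 (-0.31, adjusted p = 0.00624). MT2A had the same sign in these 3 lines, but the gene that passed was not the same in all of them. SLC30A1 did not pass in FAT1 (-0.12, adjusted p = 0.33) or FGFR1 (-0.24, adjusted p = 0.118), and MTF1 did not in CDKN2A (0.17, adjusted p = 0.102). SLC30A1 in NRG1 (0.07, adjusted p = 0.705) and PIK3CA (-0.21, adjusted p = 0.092) did not pass, though MT2A was higher in both. Of the 27 genes, 14 were higher and 7 lower in CDKN2A, 10 and 7 in FAT1, 4 and 2 in FGFR1, 1 and 6 in NRF2, 1 and 0 in NRG1, and 5 and 6 in PIK3CA. Over all genes, 29.6% were called higher and 28.7% lower in CDKN2A, 25.2% and 23.6% in FAT1, 7.13% and 6.74% in FGFR1, 10.2% and 11.5% in NRF2, 6.44% and 5.74% in NRG1, and 14.3% and 13.5% in PIK3CA.

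Genes of the oxidative and electrophile stress response rose with CSC alongside the metallothioneins. Of 13 tested, 12 rose and none fell, with a median of 0.81 on the log2 scale, among them FTL (1.73) and FTH1 (1.08), which store iron, NQO1 (1.37), a quinone reductase, and HMOX1 (0.93, adjusted p = 3.22e-05), which breaks down heme. With BaP 12 of 13 also rose, with a median of 0.74, where MT2A rose by 0.34. With NNK 7 rose and 1 fell, with a median of 0.18. Between lines, 7 were higher and 1 lower in CDKN2A, 2 and 8 in FAT1, 8 and 0 in FGFR1, 5 and 0 in NRF2, 1 and 0 in NRG1, and 5 and 2 in PIK3CA. These counts stand against 58.2% of all genes called in either direction in CDKN2A, 48.8% in FAT1, 13.9% in FGFR1, 21.7% in NRF2, 12.2% in NRG1 and 27.7% in PIK3CA. In NRF2 and FGFR1 cells HMOX1 was higher (1.27, adjusted p = 0.000306, and 1.15, adjusted p = 0.00199), while MT2A was lower. HMOX1 was near the limit of detection, at a median over all lines of 3.82 CPM with DMSO (0 to 8.7) and 5.96 with CSC (0 to 19.9).

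The glucocorticoid receptor NR3C1 and its targets gave 6 of 12 higher and 1 lower with CSC, with a median of 0.21. DUSP1, a phosphatase of stress kinases, rose by 1.51 (adjusted p = 1.75e-56) and PER1, a clock gene, by 0.48 (adjusted p = 1.25e-13), while FKBP5, a chaperone of the receptor, fell by 0.32 on the log2 scale (adjusted p = 1.88e-18). With BaP 7 rose and 2 fell and with NNK 8 rose and 2 fell, and in both 1 of those that fell was NR3C1 itself (-0.09, adjusted p = 0.0393, and -0.12, adjusted p = 0.00925). Between lines, 7 were higher and 5 lower in CDKN2A, 7 and 2 in FAT1, 1 and 1 in FGFR1, 2 and 3 in NRF2, 2 and 0 in NRG1, and 1 and 4 in PIK3CA, beside the same shares of all genes. NR3C1 was 1 of the lower genes in CDKN2A (-0.24, adjusted p = 0.000144) and 1 of the higher in FAT1 (0.18, adjusted p = 0.00404).

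Genes on either side of the cluster on chromosome 16 were lower in FAT1 cells, where MT2A and MT1E were lower too. Of 7 tested, 5 were lower than in GFP and none higher over all treatments, where 23.6% of all genes were lower. They were HERPUD1 (-0.93, adjusted p = 7.78e-14), NUDT21 (-0.61, adjusted p = 3.03e-16), BBS2 (-0.49, adjusted p = 2.6e-07), OGFOD1 (-0.40, adjusted p = 9.77e-06) and NUP93 (-0.38, adjusted p = 2.4e-05), and their part in the FAT1 result was not tested. In CDKN2A, where MT2A was higher, 4 were lower and HERPUD1 was higher (0.32, adjusted p = 0.00208), beside 28.7% of all genes lower and 29.6% higher. Those lower there included NUDT21 (-0.76), BBS2 (-0.52) and NUP93 (-0.32), which were lower in FAT1 as well. GFP, the control of both lines, was above HCRED for 4 of the 7 and below it for 1. Their median log2 fold change in that comparison was 0.19, against -0.0085 over all genes. With CSC, NUDT21 fell (-0.40, adjusted p = 3.44e-15) and none of the 7 rose, while the 4 tested metallothioneins all rose. With BaP 1 rose and 1 fell, and with NNK 1 rose and 1 fell. In the overexpression lines none was lower, and 1 was higher in FGFR1 and in NRF2 and 2 in NRG1 and in PIK3CA. The shares of all genes called higher were 7.13% in FGFR1, 10.2% in NRF2, 6.44% in NRG1 and 14.3% in PIK3CA.

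Over the means of the 32 groups, and among 10062 genes whose mean count reached 10, the genes whose log2 CPM followed MT2A most closely were SLC20A1 (Pearson r = 0.932), SPRY4 (0.913), ACTN1 (0.91), PLK3 (0.908) and MLKL (0.905). MT1E followed MT2A with r = 0.881 and MT1X with 0.766. The 5 genes outside the family nearest to MT1E were CKAP4 (0.917), MARCKSL1 (0.872), FAM20C (0.862), ADCY7 (0.853) and MLKL (0.852). Those nearest to MT1X were B4GALT2 (0.788), LRP8 (0.771), DPAGT1 (0.77), RPS6KA4 (0.748) and SLC20A1 (0.741), and MT1E and MT1X gave 0.559. MLKL stood near both MT2A and MT1E, and SLC20A1, a phosphate transporter, near both MT2A and MT1X. These values describe combinations that share lines and treatments.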

How the data were processed

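Single-end SFL reads were trimmed with cutadapt 1.12 and aligned to hg19 with STAR 2.5.2b by the authors, who counted reads in RefSeq genes with featureCounts. The deposited values are whole-number counts per gene for 95 samples, with no normalization, and this was the only unit used. Groups and replicate numbers came from the sample labels. R 4.3.3 was used, with TMM scaling from edgeR 4.0.16. Genes entered a fit when their mean count over its samples was above 1. The tests were those of limma 3.58.1 after its voom transformation (2-sided, Benjamini-Hochberg adjusted over all genes, threshold 0.05). They draw the variance of each gene toward that of all genes, so a p-value does not rest on that gene's spread alone. Comparisons within a line or treatment used the samples compared, those over all lines an additive model of genotype and treatment over 95 samples, and differences in response an interaction model. Scripts were tested on simulated data. CPM values are TMM-scaled.

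Alternatives were DESeq2 1.42.0 and its size factors, the quasi-likelihood test of edgeR, library size only, other count filters, sample weights, a lowess correction (span 0.3) for GC content and transcript length, the replicate number as a block, and samples left out. GC content and positions came from GENCODE models on GRCh37, matched for 24309 of 27978 symbols, and promoters from RefSeq. Deviations of same-numbered samples correlated between -0.114 and 0.176 (median 0.0214), so the numbers were not taken to pair samples. No 2 samples of a group agreed within sampling noise. The members and gene lists were chosen with earlier results of these data known. All members were named, and other genes only from the lists where they passed 0.05 in a comparison described, as perturbed or label-check genes, or as the 5 genes most correlated with a member. Whether counting used strand is not given in the sources used here. Protein sequences were not used here. A gene of the list flanking the cluster is not reported here.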

Additional observations from a re-analysis of the deposited data

Results flagged for a closer look

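The response of MT1X to treatment was called different across the lines, by a test of the difference itself. That call was lost without the samples numbered 1, without those numbered 2 and without the NRF2 line. In the interaction model of limma-voom its adjusted p was 0.00765 over the 21 terms of genotype and treatment and 0.00327 over the 7 terms of CSC, at log2 fold changes with CSC between -0.30 in NRF2 and 0.91 in PIK3CA cells. Among the 6 differences between a line and its control, the CSC response of NRF2 minus that of HCRED was called (-1.13 on the log2 scale, adjusted p = 0.0259), and this call was lost on leaving out any of 7 single libraries and in DESeq2 (adjusted p = 0.0804). All 3 HCRED libraries with CSC lay above all 3 with DMSO, while in NRF2 cells the libraries overlapped. The 3 NRF2 libraries with DMSO held 44, 80 and 88 reads of MT1X at 51.1, 81.8 and 108 CPM. Transcript windows that also occur elsewhere in the genome or in a transcript of another gene were most frequent in MT1X, at 36.1%. Any shared with the noncoding RNA gene that overlaps MT1X are included, and the part of these windows in the difference was not tested.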

How the results depend on the processing

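The rise of MT2A with CSC passed in all 8 lines and over all lines under every alternative run. The other results depended on the processing in the cases that follow, whose causes were not tested. Removing the trends over GC content and transcript length turned MT1E to -0.0755 with BaP and -0.0913 with NNK over all lines, and with CSC to -0.0311 in HCRED, -0.0129 in NRG1 and -0.0539 in PIK3CA. With the replicate block as well, these values were -0.0763, -0.0915, -0.0374 in HCRED and -0.0671 in PIK3CA. The NNK change of MT2A over all lines went from 0.23 to 0.124 and lost its call, and to 0.1265 with the block. The members called with BaP over all lines went from 3 to 1 with this correction, with or without the block, and to 5 with genes of at least 1 read kept. The members called with NNK went from 2 to 0 with the correction and to 4 with those genes kept, and were between 1 and 3 when the samples of 1 number were left out. Keeping genes of at least 1 read also admits MT1G, MT1A, MT1H and MT1M, and it added no call over all lines among the other 4 members. The calls it added were therefore of these thinly read genes.

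Within lines, the 9 calls with BaP became 4 in 1 model of all samples, 3 in DESeq2, 3 with the correction and 4 with the correction and block. The 5 calls with NNK became 1 under each of these 4 alternatives, and 2 or 3 with the samples of 1 number left out. Between lines, the 11 calls with DMSO became 7 in DESeq2 and 6 to 10 with samples of 1 number left out, the 12 with CSC became 6 in DESeq2, and the 7 with BaP became 4 to 7 with samples of 1 number left out. The interaction call of MT1X became 0 without the samples numbered 1 (adjusted p = 0.364) or 2 (0.0745) and without the NRF2 line, an alternative chosen after seeing the data, as were the single libraries left out of the response and within-line tests.

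The replicate number as a block, which the labels do not tie to a shared batch, ended 2 calls and added 6 over 199 results on 2 groups, and changed no call over all samples. Over all samples the block gave each number a single effect shared by all lines. It could not absorb an effect of the number that differs between lines, so the unchanged calls do not address such effects. Over 339 results on single members, 4619 values under the alternatives kept their direction and their side of the threshold, 184 lost a call, 41 gained one and 9 turned direction. Keeping genes with at least 1 read moved the median of all genes by up to 0.234 on the log2 scale. Depth limits MT1G, MT1A, MT1H and MT1M to descriptions, and MT1F had the largest standard errors of the 4 members tested over all lines.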

Other observations

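In 5 lines the library of 1 number was at the same end of its group with every treatment, for at least 1 member. The share of all genes with such a case was not counted, so the cases are a description. In FAT1 cells the library numbered 1 had the lowest MT2A (159 CPM with DMSO, 413 with CSC, 276 with BaP and 246 with NNK) and the lowest MT1E (77.8, 101, 103 and 78.6). In NRG1 cells the library numbered 3 had the highest MT2A (1225, 2634, 1773 and 1746 CPM) and the lowest MT1E (174, 231, 173 and 175). In GFP cells the library numbered 3 had the highest MT2A (531, 922, 583 and 706 CPM). In PIK3CA cells the library numbered 1 had the highest MT2A (1222, 2918, 1477 and 1363 CPM) and the library numbered 3 the lowest (979, 2225, 1162 and 1274). In NRF2 cells the library numbered 2 had the highest MT1X (108, 70.5, 66.4 and 94.5 CPM). The other lines showed no such case for MT2A, MT1E or MT1X over all 4 treatments. FGFR1 cells had no library numbered 1 with CSC, and their library numbered 1 had the lowest MT2A with the other treatments. It was at 530 CPM with DMSO, 617 with BaP and 570 with NNK. The labels do not say whether the number marks a shared culture or batch.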
